A study of Mus musculus with 12 samples.

Results

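The genes of cholesterol synthesis, of its control by SREBP2 and of cholesterol trafficking were examined in mouse RAW 264.7 cells given a miR-223 mimic or a miR-223 inhibitor. RAW 264.7 is an adherent macrophage-like line; Abelson murine leukaemia virus was used to transform it. The list held 27 genes: enzymes from acetyl-CoA to cholesterol, the SREBP2 control proteins, and genes of cholesterol transport and storage. A gene entered if a transcript cluster on the array had its symbol and no other, which held for 24 genes with 26 clusters, out of 23521 such clusters and 41345 in all. Acat2 (cytosolic thiolase), Idi1 (isopentenyl diphosphate isomerase) and Soat1 (cholesterol acyltransferase) had no such cluster and were not analysed here. All 24 genes were bright enough to be tested, a mean above log2 2.01, among 14611 tested genes.

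Cells grown to confluency were transfected with pre-miR-223 (the mimic), anti-miR-223 (the inhibitor) or an irrelevant scramble oligonucleotide, and total RNA was taken at 48 h. These groups are called Pre-miR-223, Anti-miR-223 and Scramble; each had 4 whole-transcript Affymetrix arrays titled as biological replicates, 12 in all. All cells came from 1 cell line and all groups received an oligonucleotide. No untransfected cells were analysed here, and the labels give no oligonucleotide dose. The array gave no cluster for Mir223 alone, so whether either oligonucleotide reached its mark was not examined. Values are log2 signals as deposited, and differences are differences of group means on that scale.

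Cholesterol is made from acetyl-CoA through mevalonate, farnesyl diphosphate and squalene, which closes to lanosterol and is then trimmed and reduced to cholesterol. When membranes of the endoplasmic reticulum hold enough sterol, SCAP and its cargo SREBP2 are kept there by INSIG proteins. When sterol is low, SREBP2 is carried to the Golgi apparatus, cleaved and sent to the nucleus, where it turns on the enzyme genes and its own gene. Macrophages also take in cholesterol with lipoproteins and cell debris, export it from lysosomes through NPC2 and NPC1, and store it as esters made by SOAT1. In liver cells miR-223 has been reported to repress Hmgcs1 and Msmo1, which also has the older symbol Sc4mol.

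The transfected microRNA acts through its seed, bases 2 to 8, which pairs with target transcripts. Both mature strands are shown from RefSeq (GRCm38.p6) with the seed in capitals, because the mimic and the inhibitor address this microRNA; the labels do not say which strand was used. The 3p strand lies at chrX:96242884-96242905 and the 5p strand at chrX:96242842-96242864, both on the plus strand.
mmu-miR-223-3p: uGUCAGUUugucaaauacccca
mmu-miR-223-5p: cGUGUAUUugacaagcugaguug

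Promoter windows of 250 bases before to 50 after the start were read from RefSeq (GRCm38.p6), 28 windows for 22 of the 27 listed genes. The letters TCACNCCA, a form of the sterol regulatory element bound by SREBP, stood in 3 of the 28 windows (10.7%), those of Hmgcs1, Msmo1 and Srebf2, against 4.36% of all 32851 windows. CCAAT, the letters of the NF-Y box, stood in 20 of 28 windows (71.4%), against 37.4% of all windows. GGGCGG, the letters of the GC box bound by Sp proteins, stood in 24 of 28 (85.7%), against 35.7%. Both strands were searched; TCACNCCA can share its last letters with CCAAT, and each match was counted on its own. A match is a description of letters and not a binding site. The windows of 5 genes are printed, those of the 3 genes with the sterol element letters and those of Tm7sf2 and Insig2, whose Pre-miR-223 and Scramble values did not overlap. Capitals mark TCACNCCA and CCAAT on either strand. They lie at chr13:119690101-119690400 on the plus strand (Hmgcs1), chr8:64733529-64733828 on the minus strand (Msmo1), chr15:82147019-82147318 on the plus strand (Srebf2), chr19:6067801-6068100 on the minus strand (Tm7sf2) and chr1:121332540-121332839 on the minus strand (Insig2, the most upstream of its 3 windows). The sterol element letters began 137 bases before the start in Hmgcs1, 177 in Msmo1 and 162 in Srebf2. The printed window of Insig2 held CCAAT 3 times, and each of its other windows held it 0 times. Which start of Insig2 these cells use was not examined.
Hmgcs1: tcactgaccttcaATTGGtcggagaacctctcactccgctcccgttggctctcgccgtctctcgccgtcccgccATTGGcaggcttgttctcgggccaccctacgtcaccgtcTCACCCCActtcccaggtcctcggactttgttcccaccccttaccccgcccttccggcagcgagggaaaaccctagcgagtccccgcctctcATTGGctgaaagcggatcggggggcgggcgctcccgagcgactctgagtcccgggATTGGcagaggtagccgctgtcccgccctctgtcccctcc
Msmo1: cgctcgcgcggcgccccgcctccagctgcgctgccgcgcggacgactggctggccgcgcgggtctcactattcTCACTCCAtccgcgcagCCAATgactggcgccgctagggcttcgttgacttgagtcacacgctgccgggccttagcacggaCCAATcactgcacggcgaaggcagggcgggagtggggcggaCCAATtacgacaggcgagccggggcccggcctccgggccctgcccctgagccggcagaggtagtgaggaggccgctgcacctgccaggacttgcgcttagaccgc
Srebf2: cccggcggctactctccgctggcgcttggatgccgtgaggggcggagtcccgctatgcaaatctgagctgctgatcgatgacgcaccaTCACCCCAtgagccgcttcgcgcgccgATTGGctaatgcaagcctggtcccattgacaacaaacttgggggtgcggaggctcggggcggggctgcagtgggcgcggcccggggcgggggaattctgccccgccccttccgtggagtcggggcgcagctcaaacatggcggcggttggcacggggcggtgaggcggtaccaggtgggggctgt
Tm7sf2: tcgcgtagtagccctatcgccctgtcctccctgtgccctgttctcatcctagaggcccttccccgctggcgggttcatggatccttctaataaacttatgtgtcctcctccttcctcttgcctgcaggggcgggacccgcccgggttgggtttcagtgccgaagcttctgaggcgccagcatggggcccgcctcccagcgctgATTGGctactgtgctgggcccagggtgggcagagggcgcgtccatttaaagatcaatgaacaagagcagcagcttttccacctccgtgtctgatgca
Insig2: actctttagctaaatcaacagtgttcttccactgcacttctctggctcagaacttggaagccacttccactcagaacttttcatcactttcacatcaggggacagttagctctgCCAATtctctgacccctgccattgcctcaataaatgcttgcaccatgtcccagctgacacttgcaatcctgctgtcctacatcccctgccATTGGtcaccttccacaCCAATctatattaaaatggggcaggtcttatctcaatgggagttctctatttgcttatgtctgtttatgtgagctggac

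Macrophage identity and array quality were checked first. All 10 macrophage markers were above the level required, 8 of them above log2 6. The highest was Lyz2, the macrophage lysozyme, at 11.19, and the lowest Mertk, at 2.42. Of 5 lists of other cell types (fibroblast, epithelium, lymphoid, neutrophil or dendritic, hepatocyte), no marker reached log2 6, and the highest was Krt8 at 3.52. The level required was passed by 3 of 6 fibroblast, 3 of 5 epithelium and 2 of 5 lymphoid markers. It was also passed by 2 of 6 neutrophil or dendritic and 2 of 3 hepatocyte markers. Replicate 4 of Anti-miR-223 stood apart: its median correlation with the other 11 arrays, across genes, was 0.967, against 0.988 to 0.992 for each of those. Its small nucleolar RNA genes deviated from their 12-array means by a median of -1.41, against -0.12 to 0.35 on the other arrays. Results that rest on this array are therefore also given without it. In a bulk sample of cells, fewer cells expressing a gene and less RNA of it per cell cannot be told apart.

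The 6 enzyme genes measured on the way to squalene were all above the level required for testing. Signals of different clusters depend on their probes, so the levels are given per gene and are not ranked. Hmgcs1, which makes HMG-CoA, had a mean of 7.17 over the 12 arrays; Mvk and Pmvk, the kinases that phosphorylate mevalonate, had 4.32 and 5.21. Mvd, the decarboxylase that gives isopentenyl diphosphate, had 5.36, Fdps, farnesyl diphosphate synthase, had 8.13, and Fdft1, squalene synthase, had 6.66.

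The 11 enzymes from squalene to cholesterol were also all above the level required. Sqle, the epoxidase that opens this branch, had a mean of 7.21, and Lss, which closes the ring to lanosterol, had 5.23. The demethylase Cyp51 had 6.09, and the 2 reductases of the following step, Tm7sf2 and Lbr, had 3.66 and 7.73; Lbr is also a receptor for lamin B in the nuclear envelope. The demethylation complex of Msmo1, Nsdhl and Hsd17b7 had 5.91, 7.06 and 4.74. The late enzymes Ebp (an isomerase), Sc5d (a desaturase) and Dhcr7 (the reductase that gives cholesterol) had 6.11, 5.78 and 4.74.

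The regulators and carriers were present as well. Srebf2, which encodes SREBP2, had a mean of 6.96, and its escort and sterol sensor Scap had 5.59. The retention factors Insig1 and Insig2 had 7.47 and 4.06. Stard4, a cytosolic sterol carrier, had 4.93, the lysosomal transporter Npc1 had 5.28 and its soluble partner Npc2 had 8.43.

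**Figure D1:**
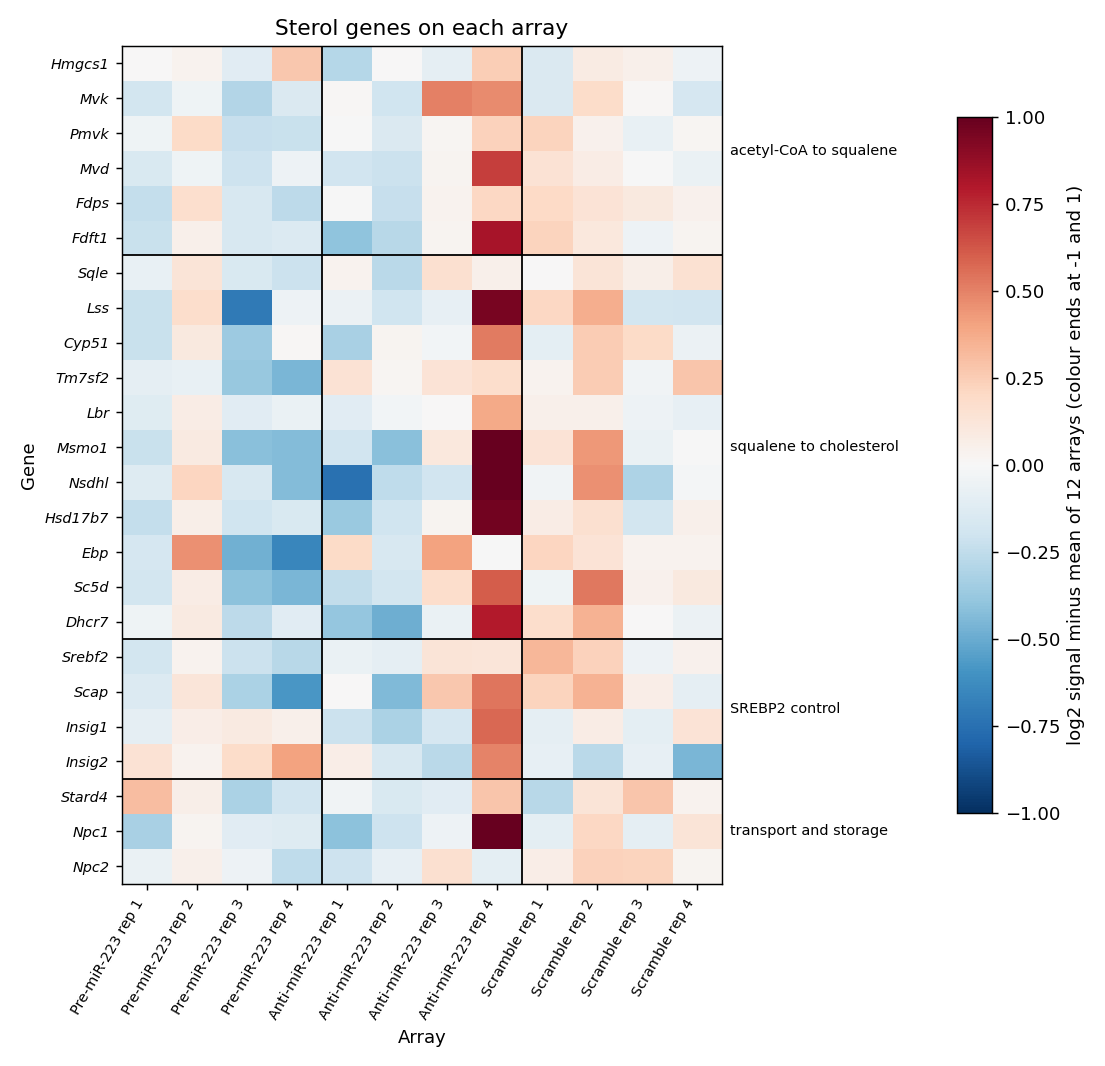
Deviation of each of the 24 sterol genes (rows, by role) from its own 12-array mean, in log2 units, on each array (columns, by group). The column of Anti-miR-223 replicate 4 is mostly red, with 22 of 24 genes above the mean of the other 11 arrays, and Scramble replicate 2 and Pre-miR-223 replicate 2 have 23 and 21 genes above their own means.

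The first comparison, Pre-miR-223 against Scramble, asked how the pathway stood in cells given the miR-223 mimic. Most sterol genes had slightly lower means in Pre-miR-223 cells: 21 of 24 lay lower, by a median difference of -0.18. Among all genes tested 65.2% lay lower, with a median of -0.05. No sterol gene passed the limma test over all genes, where 0% of all genes were called, and the lowest adjusted p was 0.921. At an unadjusted p under 0.05, Tm7sf2 and Srebf2 were lower and Insig2 was higher. Those are 2 and 1 of 24, against 3.85% of all genes lower and 1.02% higher at that threshold, 562 and 149 genes. With cyclic loess the sterol gene counts were also 2 and 1, where all genes split into 375 lower and 298 higher.

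Tm7sf2 encodes an endoplasmic reticulum reductase that removes the double bond left by Cyp51. It had 3.57, 3.58, 3.28 and 3.20 on the Pre-miR-223 arrays, against 3.69, 3.91, 3.62 and 3.94 on the Scramble arrays. Every Pre-miR-223 value lay below every Scramble value. The gene was dim, with a mean of 3.66 over the 12 arrays, near the 3.52 of Krt8, an epithelial marker. The difference was -0.38 (95% CI -0.63 to -0.13), with an unadjusted p of 0.00539 and an adjusted p of 0.921 by limma. It was the only sterol gene to lie lower without overlap, where 2.2% of all genes did so. Lbr, which carries out the same reduction, differed by -0.05 (-0.29 to 0.19). The difference between these 2 genes' responses was not tested.

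Srebf2 encodes the master transcription factor of the pathway. It had 6.77, 6.99, 6.74 and 6.68 on the Pre-miR-223 arrays, against 7.29, 7.18, 6.91 and 7.0 on the Scramble arrays. The groups overlapped only through Pre-miR-223 replicate 2, which lay above Scramble replicate 3. The difference was -0.30 (-0.54 to -0.06), with an unadjusted p of 0.0198 and an adjusted p of 0.921 by limma. Its escort Scap differed by -0.37 (-0.79 to 0.05). A second, dim cluster of Scap, with a mean of 2.42, differed by 0.18 (-0.05 to 0.41), so the clusters of this gene did not point the same way.

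Insig2, whose product holds SCAP and SREBP2 in the endoplasmic reticulum, had 4.21, 4.09, 4.25 and 4.46 on the Pre-miR-223 arrays. On the Scramble arrays it had 3.98, 3.79, 3.98 and 3.61. All Pre-miR-223 values lay above all Scramble values, the only such case among the sterol genes, where 0.773% of all genes lay higher without overlap. The difference was 0.41 (0.08 to 0.75), with an unadjusted p of 0.0201 and an adjusted p of 0.921 by limma. Insig1, whose product has the same role, differed by 0.02 (-0.32 to 0.37). Of the 4 control genes 2 lay lower and 2 higher.

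Of the 6 enzyme genes that lead to squalene, 5 lay lower. Fdps had the smallest p of this stretch, with 7.90, 8.30, 7.97 and 7.87 on the Pre-miR-223 arrays, against 8.34, 8.27, 8.23 and 8.18 on the Scramble arrays. Replicate 2 of Pre-miR-223 lay within the Scramble range and the other 3 lay below it. The difference was -0.24 (-0.50 to 0.01). Pmvk differed by -0.13, Mvk by -0.14, Mvd by -0.15 and Fdft1 by -0.19, each with an interval that held 0.

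Hmgcs1 had 7.17, 7.20, 7.05 and 7.43 on the Pre-miR-223 arrays, against 7.02, 7.25, 7.22 and 7.12 on the Scramble arrays. The groups overlapped, and the difference was 0.06 (-0.20 to 0.33). That interval excludes a fall of 1.5-fold or more in the mean signal of this gene.

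All 11 genes from squalene to cholesterol had lower means in Pre-miR-223 cells, by a median difference of -0.20, though Lbr turned higher under 3 other scalings of the arrays. Msmo1 had 5.69, 5.99, 5.48 and 5.47 on the Pre-miR-223 arrays, against 6.04, 6.34, 5.84 and 5.90 on the Scramble arrays. Replicate 2 of Pre-miR-223 lay within the Scramble range and the other 3 lay below it. The difference was -0.37 (-0.89 to 0.15). Sc5d differed by -0.40 (-0.81 to 0.01) and Ebp by -0.31 (-0.74 to 0.11). Lss differed by -0.25, Dhcr7 by -0.20, Cyp51 by -0.19, Sqle and Hsd17b7 by -0.16 each and Nsdhl by -0.15, all with intervals that held 0. Lss was at -0.08 without Pre-miR-223 replicate 3 and Nsdhl at -0.0047 without Scramble replicate 2, so these differences each leaned on 1 array.

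The 3 transport genes had lower means too, though Stard4 turned higher under 2 other scalings. Npc2 had 8.36, 8.48, 8.38 and 8.18 on the Pre-miR-223 arrays, against 8.49, 8.66, 8.65 and 8.45 on the Scramble arrays. Only Pre-miR-223 replicate 2 reached the Scramble range. The difference was -0.22 (-0.45 to 0.01), beside -0.17 for Npc1 and -0.08 for Stard4. Over all 24 genes, the 95% interval excluded a 2-fold fall for 24, a 1.5-fold fall for 13 and a 1.5-fold rise for 22. In the fit without Anti-miR-223 replicate 4, which enters the pooled spread, these counts were 24, 18 and 23.

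**Figure D2:**
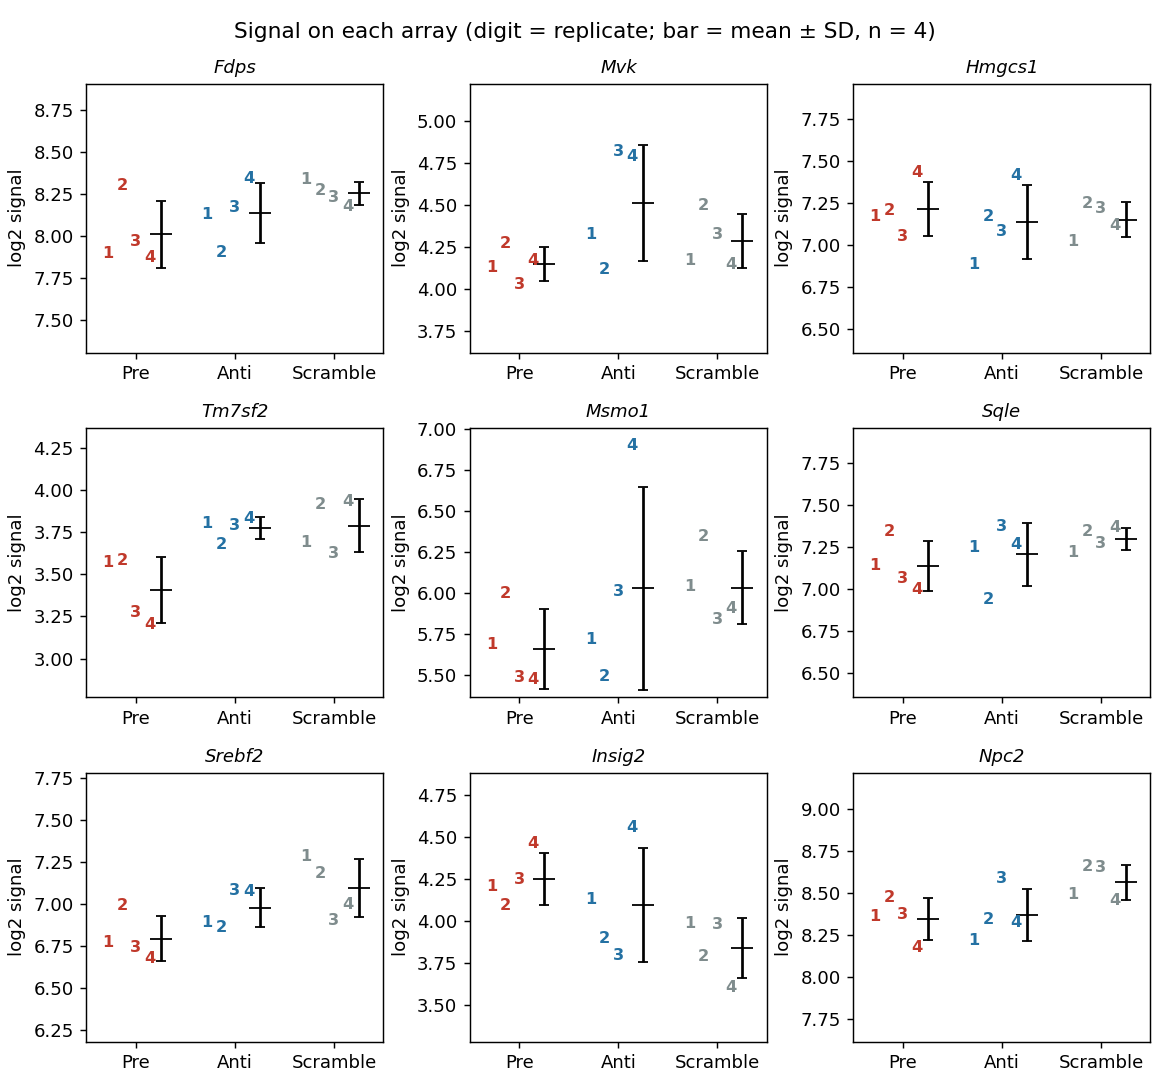
Log2 signal of 9 sterol genes on each array, by group, with the replicate number as the point and the mean ± SD of 4 arrays as the bar. Pre-miR-223 and Scramble values do not overlap for Tm7sf2 and Insig2, and Anti-miR-223 replicate 4 lies far above the other arrays for Msmo1, at 6.90.

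Lower means in Pre-miR-223 cells were not confined to the sterol genes. Protein-coding genes above log2 5, 4734 in number, differed between Pre-miR-223 and Scramble by a median of -0.11, with 79.4% lower. Relative to those genes, the sterol genes' median was -0.08 instead of -0.18, with 19 of 24 lower; this scaling was chosen after the data were seen. It put the median of all genes at 0.05, against -0.05 without it, with 187 lower and 372 higher at an unadjusted p under 0.05. Under it, and under cyclic loess, Lbr and Stard4 turned to higher means, at 0.06 and 0.03 with the centring. Per array, the sterol genes' median deviation from the 12-array mean was -0.15, 0.07, -0.21 and -0.17 in Pre-miR-223 and 0.06, 0.17, -0.02 and 0.02 in Scramble. The protein-coding genes were at -0.08, 0.08, -0.11 and -0.15 in Pre-miR-223 and at 0.01, 0.16, -0.01 and 0.01 in Scramble. The sterol genes thus lay low on the same 3 Pre-miR-223 arrays as protein-coding genes at large, and the part this has in the difference was not tested. Over all clusters, the array medians were 2.27, 2.23, 2.29 and 2.31 in Pre-miR-223 and 2.27, 2.23, 2.26 and 2.25 in Scramble. Interquartile ranges were 2.30, 2.39, 2.27 and 2.20 in Pre-miR-223 and 2.28, 2.38, 2.37 and 2.35 in Scramble.

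Leaving out Anti-miR-223 replicate 4 did not alter these differences but narrowed the pooled spread. At an unadjusted p under 0.05, 7 sterol genes then stood out in place of 3: Fdps, Msmo1, Sc5d and Scap joined Tm7sf2, Srebf2 and Insig2. Those are 6 lower and 1 higher of 24, where 7.64% of all genes were lower (1117) and 1.74% higher (254) in the same fit, so the share of all genes past that threshold also grew. None was called, with a lowest adjusted p of 0.521 by limma. Without Pre-miR-223 replicate 2 the median difference was -0.25.

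The second comparison, Anti-miR-223 against Scramble, concerned cells given the miR-223 inhibitor. With all 4 arrays the sterol genes had means on both sides of Scramble: 15 of 24 were lower, with a median difference of -0.02, against 52.5% of all genes and a median of -0.01. With cyclic loess, repeated quantile normalisation or centring on protein-coding genes, 11 of 24 were lower. No sterol gene was called (0% of all genes; lowest adjusted p of the sterol genes 0.99997 by limma). None had an unadjusted p under 0.05, which 2.01% of all genes had, and no sterol gene's groups were free of overlap, as 1.55% of all genes were. Both comparisons use the same Scramble arrays, so their values are given side by side and are not set against each other as independent.

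Npc2 had the smallest p of the sterol genes in this comparison. It had 8.22, 8.34, 8.59 and 8.33 on the Anti-miR-223 arrays, against 8.49, 8.66, 8.65 and 8.45 on the Scramble arrays. Replicate 3 of Anti-miR-223 lay within the Scramble range and the other 3 lay below it. The difference was -0.19 (-0.43 to 0.04), or -0.18 without replicate 4. Npc1 differed by 0.06 and Stard4 by -0.05, or -0.26 and -0.14 without that array.

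Insig2, the control gene with the smallest p here, had 4.13, 3.90, 3.79 and 4.56 on the Anti-miR-223 arrays, against 3.98, 3.79, 3.98 and 3.61 on the Scramble arrays. The groups overlapped, with replicates 1 and 4 of Anti-miR-223 above all Scramble values. The difference was 0.25 (-0.08 to 0.59), or 0.10 without replicate 4. Srebf2 had 6.89, 6.86, 7.08 and 7.08 on the Anti-miR-223 arrays and differed by -0.12 (-0.36 to 0.13), or -0.15 without replicate 4. Scap and Insig1 differed by -0.05 and -0.03, or -0.19 and -0.23 without it.

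In the stretch to squalene, Mvk had 4.33, 4.11, 4.82 and 4.79 on the Anti-miR-223 arrays, against 4.17, 4.50, 4.32 and 4.15 on the Scramble arrays. Replicates 3 and 4 of Anti-miR-223 lay above all Scramble values and replicate 2 below them. The difference was 0.23 (-0.10 to 0.55), or 0.13 without replicate 4. Hmgcs1 had 6.89, 7.17, 7.08 and 7.41 on the Anti-miR-223 arrays and differed by -0.01 (-0.28 to 0.25), or -0.10 without replicate 4. Fdps, with 8.13, 7.91, 8.17 and 8.34, differed by -0.12 (-0.37 to 0.14), or -0.19 without it. Pmvk and Fdft1 differed by -0.03 each and Mvd by 0.04. Without replicate 4 these were -0.10 for Pmvk, -0.29 for Fdft1 and -0.16 for Mvd.

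In the stretch to cholesterol, Sqle had 7.25, 6.94, 7.37 and 7.27 on the Anti-miR-223 arrays, against 7.22, 7.34, 7.27 and 7.36 on the Scramble arrays. Apart from replicate 2, which was low, the Anti-miR-223 arrays lay at the Scramble level, and the difference was -0.09 (-0.33 to 0.15), or -0.11 without replicate 4. Msmo1 had 5.71, 5.49, 6.01 and 6.90 on the Anti-miR-223 arrays. Its replicates 1 and 2 lay below every Scramble value and replicate 4 above every one, and the means were level, at 6.03 in both groups, while without replicate 4 the difference was -0.29. Tm7sf2, with 3.80, 3.68, 3.79 and 3.83, differed by -0.01 (-0.26 to 0.23), or -0.03 without it. Dhcr7 differed by -0.15, Sc5d by -0.07 and Cyp51 by -0.02, while Lss differed by 0.11, Nsdhl and Hsd17b7 by 0.08 each, Lbr by 0.07 and Ebp by 0.00. Without replicate 4, Sc5d was at -0.24, Cyp51 at -0.18, Lss at -0.16, Hsd17b7 at -0.20, Lbr at -0.04 and Ebp at 0.04, beside -0.43 for Dhcr7 and -0.42 for Nsdhl.

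Many of these differences rest on Anti-miR-223 replicate 4, though those of Npc2, Sqle, Tm7sf2 and Srebf2 moved little without it. With replicates 1 to 3 alone, 21 of 24 sterol genes lay below Scramble, by a median of -0.17, where 63.6% of all genes lay lower with a median of -0.05. No gene was called (0% of all genes; lowest adjusted p of a sterol gene 0.712 by limma). At an unadjusted p under 0.05, 4 were lower, against 4.89% of all genes. They were Dhcr7 at -0.43 (-0.71 to -0.15), Nsdhl at -0.42 (-0.81 to -0.03), Fdft1 at -0.29 (-0.55 to -0.04) and Insig1 at -0.23 (-0.45 to -0.02). Fdps, Dhcr7 and Insig1 had no overlap with Scramble and lay lower, 3 of 24, against 4.53% of all genes. Protein-coding genes above log2 5 had a median of -0.11 in the same arrays, with 82.3% lower, and relative to them the sterol genes' median was -0.07, with 17 lower.

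**Figure D3:**
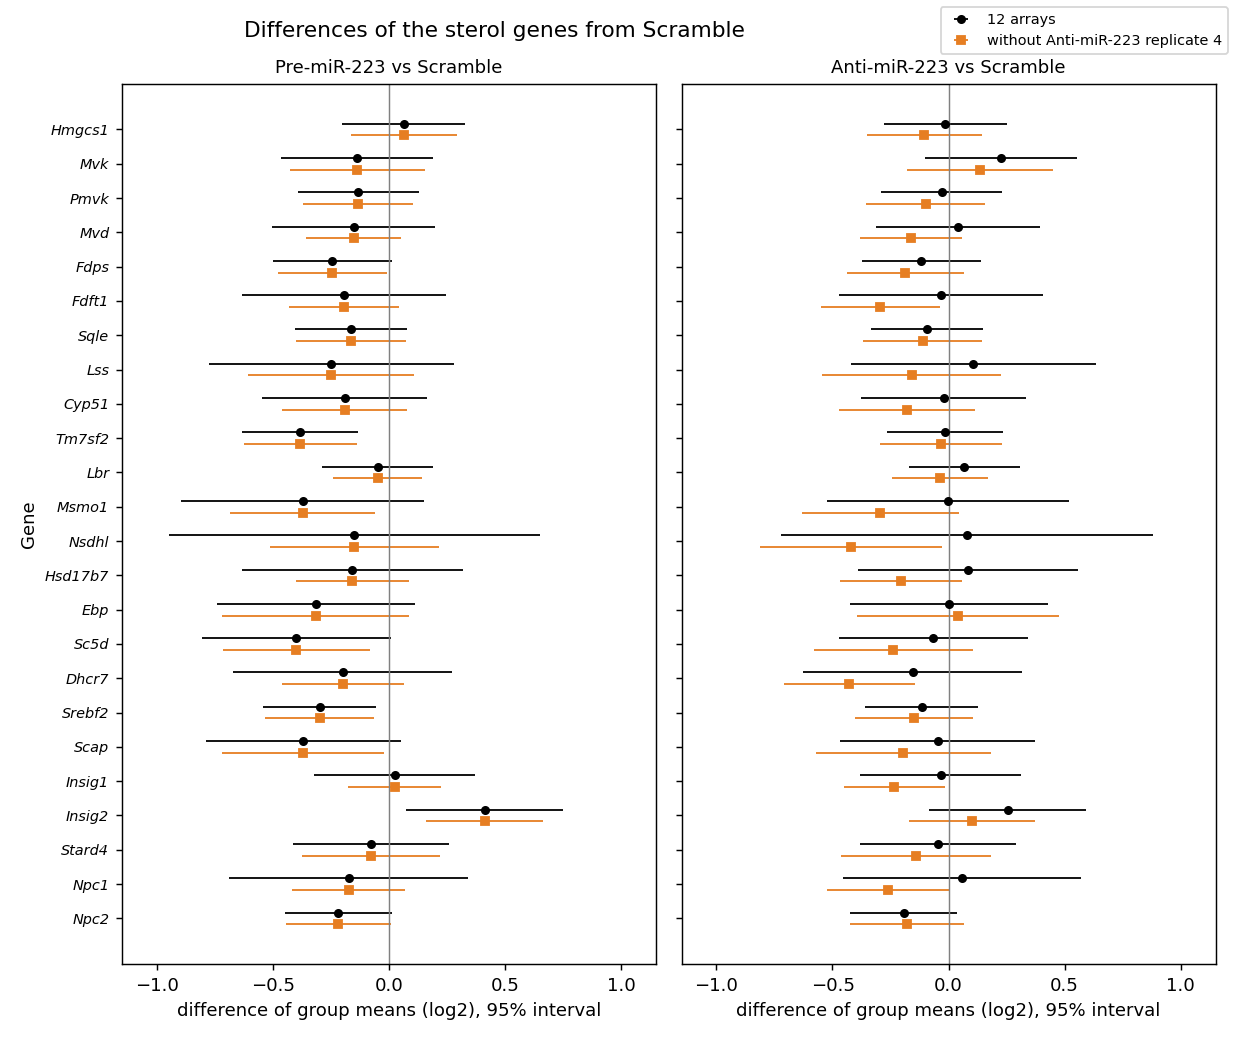
Difference of group means from Scramble (log2, horizontal axis) for each of the 24 sterol genes with its 95% interval, for Pre-miR-223 on the left and Anti-miR-223 on the right. Black points use all 12 arrays and orange squares leave out Anti-miR-223 replicate 4, which moves the right-hand median to -0.17, against -0.02 with it.

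Pre-miR-223 was also compared directly with Anti-miR-223, the opposite treatments. With all arrays, 21 of 24 sterol genes lay lower in Pre-miR-223 cells, by a median of -0.18, where 62.8% of all genes lay lower with a median of -0.04. With cyclic loess or centring on protein-coding genes 17 of 24 lay lower, and 53.0% and 39.1% of all genes. No gene was called (0% of all genes; lowest adjusted p 0.946 by limma). Tm7sf2 differed by -0.37 (-0.62 to -0.12) and Mvk by -0.36 (-0.69 to -0.04), the 2 genes lower at an unadjusted p under 0.05, where 2.57% of all genes were. Tm7sf2 lay lower with no overlap, as 0.972% of all genes did: its Pre-miR-223 values reached 3.58 at most, against at least 3.68 on the Anti-miR-223 arrays. The next smallest p-values were those of Sc5d at -0.33 (-0.74 to 0.07), Scap at -0.32 (-0.74 to 0.10) and Srebf2 at -0.18 (-0.43 to 0.06).

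Without Anti-miR-223 replicate 4 this comparison was near level, with 14 of 24 sterol genes lower in Pre-miR-223 cells and a median of -0.02. All genes stood at 52.2% lower and a median of -0.01, and 0% were called. Tm7sf2 still differed by -0.35 (-0.61 to -0.09), while Mvk differed by -0.27 (-0.58 to 0.04), Scap by -0.17, Sc5d by -0.16 and Srebf2 by -0.15. Insig2 differed by 0.31 (0.04 to 0.58) and Insig1 by 0.26 (0.04 to 0.48), both higher in Pre-miR-223 cells. At an unadjusted p under 0.05 Tm7sf2 was thus lower and the INSIG genes higher, 1 and 2 of 24, where 2.82% of all genes were lower and 2.07% higher. None of these passed the adjustment over all genes, with adjusted p 0.964 by limma for Tm7sf2, Insig1 and Insig2 alike.

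The order of the 3 group means is a description, since most neighbouring means differ by less than their intervals. For 13 genes it was Scramble highest and Pre-miR-223 lowest with Anti-miR-223 between them, Srebf2, Tm7sf2, Fdps and Msmo1 among these. For 8 genes, Mvk, Mvd, Lss, Lbr, Nsdhl, Hsd17b7, Ebp and Npc1, Anti-miR-223 was highest and Pre-miR-223 lowest. Hmgcs1 and Insig1 were highest in Pre-miR-223 and lowest in Anti-miR-223. Insig2 alone was highest in Pre-miR-223 and lowest in Scramble. Without Anti-miR-223 replicate 4, 15 of 24 genes had the order they had with it. Of the 8 genes with Anti-miR-223 highest, 2 still had that order, Mvk and Ebp; Lss and Lbr then had Scramble highest and Pre-miR-223 lowest. For 7 genes, Mvd, Nsdhl, Hsd17b7, Npc1, Fdft1, Dhcr7 and Stard4, Scramble was then highest and Anti-miR-223 lowest.

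The largest departures of sterol genes were those on Anti-miR-223 replicate 4, an array and not a group, so they carry no test. Relative to the mean of the other 11 arrays, 22 of 24 sterol genes were higher there, by a median of 0.56 against 0.08 for all genes. On that array 16 of 24 had their highest value of the 12 and none its lowest, where 34.1% and 13.5% of all genes did. Over 1.5-fold above the other arrays' mean were 11 of 24, where 16% of all genes were, and 0 of 24 were as far below, where 2.85% of all genes were. These genes were picked out after their values were seen.

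Nsdhl, the dehydrogenase of the demethylation complex, was farthest away, at 8.67 on that array, against 6.32 to 7.52 on the other 11, a difference of 1.75. Npc1 was at 6.33, against 4.87 to 5.49, and Msmo1 at 6.90, against 5.47 to 6.34. Hsd17b7 was at 5.71, against 4.37 to 4.90, Lss at 6.18, against 4.53 to 5.59, and Dhcr7 at 5.53, against 4.25 to 5.08. Msmo1, Nsdhl and Hsd17b7, which form that complex, thus each had their highest value there. So did 16 of 24 sterol genes in all and 34.1% of all genes, so this was not particular to the complex. Fdft1, Mvd, Sc5d, Insig1 and Scap were the other genes over 1.5-fold higher. Npc2 and Ebp were not higher, with differences of -0.11 and -0.01, and Sqle and Srebf2 were close to the other arrays, with 0.06 and 0.13.

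Other measures moved on the same array. Protein-coding genes above log2 5 had a median deviation of 0.27 there, against -0.15 to 0.16 on the other arrays, and the sterol genes 0.51, against -0.21 to 0.17. Of these protein-coding genes, the 1184 with a long span (at least 53.7 kb) had 0.42, and the 1184 with a short span (at most 11.3 kb) had 0.07. The part of these shifts in the sterol genes' departure was not tested.

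**Figure D4:**
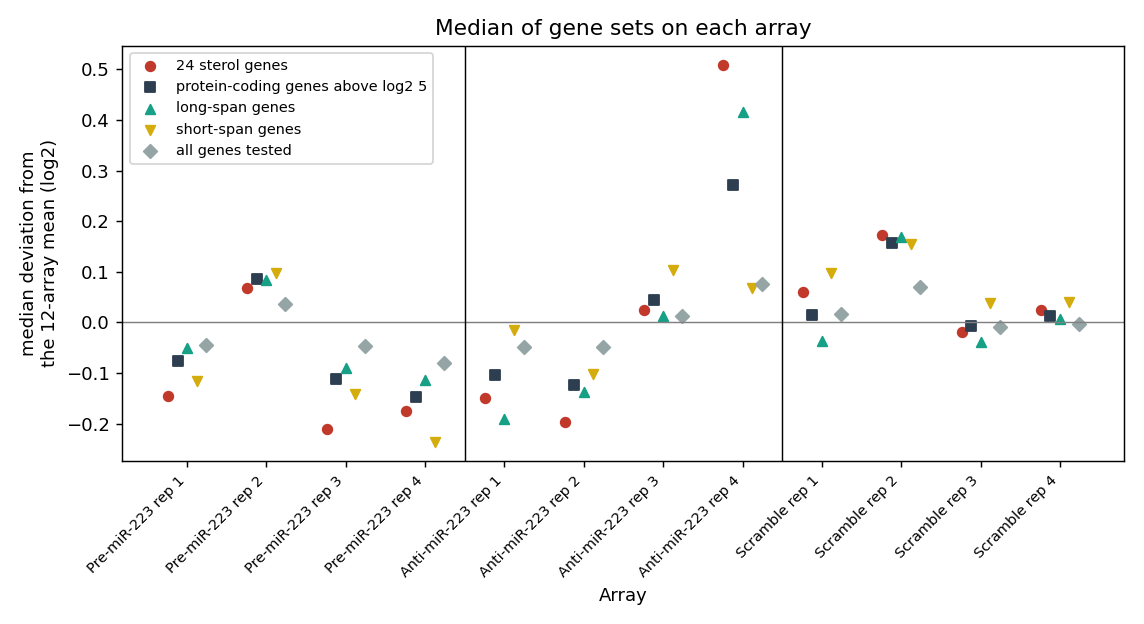
Median deviation from the 12-array mean (log2) of the 24 sterol genes, protein-coding genes above log2 5, those with long or short spans, and all genes tested, on each array. On Anti-miR-223 replicate 4 the sterol genes stand at 0.51 and all genes at 0.08; on the other arrays the sterol genes run from -0.21 to 0.17.

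The sterol genes varied together from array to array within groups. After the group means were subtracted, the median Pearson r over the 276 pairs of sterol genes was 0.59 across the 12 arrays, with 261 pairs above 0. It was 0.40 for protein-coding genes above log2 5 and 0.04 for all genes. Without Anti-miR-223 replicate 4 it was 0.48, with 237 pairs above 0, against 0.37 for the protein-coding genes. After each array was centred on those protein-coding genes, the sterol pairs' median r was 0.05, with 150 pairs above 0. The points share their arrays and any array-wide shift, so these are descriptions and carry no p.

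The closest pairs with all arrays were Fdft1 with Hsd17b7 (r = 0.982), Msmo1 with Dhcr7 (0.977) and Hsd17b7 with Npc1 (0.975). Without Anti-miR-223 replicate 4 they were Msmo1 with Dhcr7 (0.933), Msmo1 with Scap (0.911) and Fdps with Ebp (0.906). Msmo1 followed the mean of the other sterol genes most closely, with r = 0.989 over 12 arrays and 0.965 without that array. Hmgcs1 had 0.551 with that array and 0.0575 without it. Insig2 ran against the rest without it, with r = -0.507. All these r were taken before the arrays were centred on protein-coding genes, so they include any array-wide shift. After that centring the median over pairs was 0.05, and which single values would remain was not examined.

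**Figure D5:**
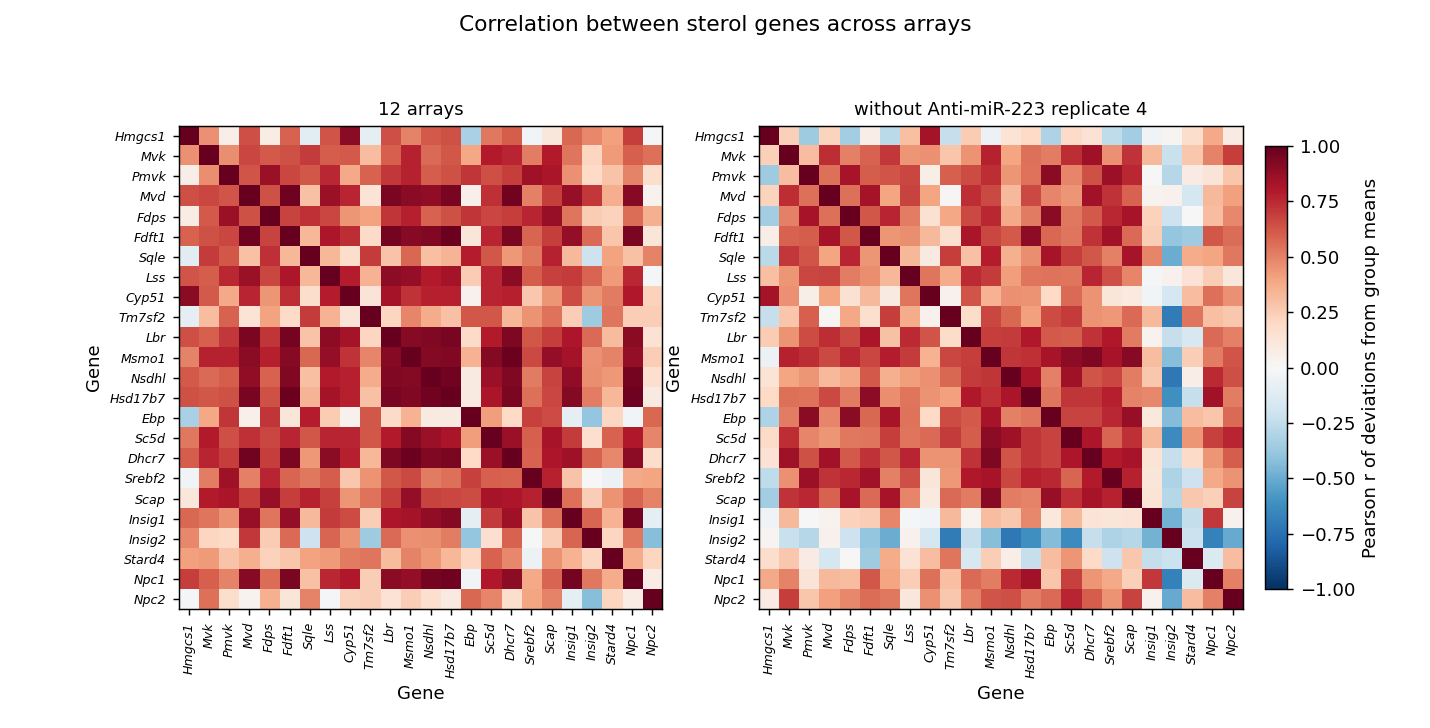
Pearson r between each pair of the 24 sterol genes after subtraction of group means, over 12 arrays on the left and without Anti-miR-223 replicate 4 on the right. Most pairs are positive, 261 and 237 of 276, and the row of Insig2 turns mostly negative on the right. The arrays were not centred on protein-coding genes here.

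Other genes of sterol handling were counted from a separate list of 26, of which 19 were tested and the rest were not analysed here. Of all genes tested 65.2% lay lower in Pre-miR-223 than in Scramble, as did 79.4% of protein-coding genes above log2 5. Of the 19, 15 lay lower and 4 higher, with a median of -0.11 and 0 called. The smallest p-values belonged to Gramd1a, an endoplasmic reticulum sterol transfer protein, at -0.23 (-0.47 to 0.01), Erlin1, a membrane protein of the endoplasmic reticulum, at -0.26 (-0.65 to 0.13), and Stard3, a late endosomal sterol carrier, at -0.19 (-0.52 to 0.14).

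Between Anti-miR-223 and Scramble 8 of the 19 lay lower and 11 higher, with a median of 0.05 and 0 called. Of all genes 52.5% lay lower, as did 59.3% of protein-coding genes above log2 5. Without replicate 4, 18 of the 19 lay lower, with a median of -0.15, where these shares were 63.6% and 82.3%. The smallest p-values with all arrays were those of Idi2, an isopentenyl diphosphate isomerase, at -0.21 (-0.56 to 0.14), Gramd1c at 0.14 (-0.14 to 0.43) and Mbtps2, the protease that makes the final cut in SREBP, at 0.13 (-0.14 to 0.39). Without replicate 4 these were -0.35 for Idi2, 0.22 for Gramd1c and -0.01 for Mbtps2.

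Of all genes 62.8% lay lower in Pre-miR-223 than in Anti-miR-223, as did 72.9% of protein-coding genes above log2 5. Without replicate 4 these shares were 52.2% and 50.1%. Of the 19, 17 lay lower, with a median of -0.12 and 0 called, and 5 lay lower without replicate 4, with a median of 0.06. The smallest p-values were those of Gramd1a at -0.23 (-0.47 to 0.01), the mitochondrial thiolase gene Acat1 at -0.35 (-0.86 to 0.17) and the cholesterol ester hydrolase gene Nceh1 at -0.29 (-0.78 to 0.21). Without replicate 4 these were -0.22 for Gramd1a, -0.04 for Acat1 and 0.01 for Nceh1.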

How the data were processed

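Gene expression was measured on 12 Affymetrix whole-transcript arrays, 4 per group. The authors deposited 1 table of log2 values for 41345 transcript clusters, between 0.53 and 12.45; RMA, Partek and Affymetrix Expression Console are named, without versions, per the submitters' processing notes. RMA brings the arrays' distributions together, which hides any change in total RNA output. In the deposited values they were not fully equal. On 11 arrays the medians ran from 2.23 to 2.31 and the interquartile ranges from 2.20 to 2.39. Anti-miR-223 replicate 4 had 2.21 and 2.47. No source states the base of the logarithm; base 2 was assumed because RMA uses it. The genome build of the arrays is not given in the sources used here.

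Probe annotation gave a single symbol to 23521 clusters, several symbols to 1814 and none to 16010. The brightest single-symbol cluster over the 12 arrays stood for each of 22180 symbols, of which 1082 had several. The 14611 genes whose mean exceeded log2 2.01, the 40th percentile over clusters, were tested. The tests used lmFit and eBayes of limma 3.58.1 (R 4.3.3) in 1 model of the 12 arrays without covariates (9 residual degrees of freedom). A gene was called when its 2-sided p, adjusted by Benjamini-Hochberg over the 14611 genes, was under 0.05. The number of arrays limits the precision; the median 95% interval of a sterol gene reached 0.35 to either side. Whether the replicates came from separate cultures is not stated beyond their titles, so p-values measure the spread between these arrays. The procedure was tested on simulated data for whether it returned the size of known added changes. How often it would call such changes is not given here.

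The members and lists were chosen with earlier results of these data known, so no p is given for a list. By a rule, values on every array are given for the gene with the smallest p of each role in the comparisons with Scramble, and for Hmgcs1, Msmo1 and Srebf2; differences are given for every tested gene against Scramble and for the 5 smallest p-values between Pre-miR-223 and Anti-miR-223. Genes named for Anti-miR-223 replicate 4 were chosen after their values were seen. Alternatives, 23 in all, varied the scaling, level filter, cluster rule, variance model, array weights, samples in the fit and replicate number as a block, and left out each array in turn.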

Additional observations from a re-analysis of the deposited data

Results flagged for a closer look

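Of 75 groups of 4 arrays checked for a sample far from the others (24 sterol genes and their median, in 3 groups), 1 was flagged. Lss, the lanosterol synthase gene, had 6.18 on Anti-miR-223 replicate 4, against 5.04 to 5.17 on the other 3 arrays of its group. The gap took up 0.879 of the group's range, above Dixon's 95% critical value for 4 samples. Chance flags about 1 group in 20.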

How the results depend on the processing

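No sterol gene was called in any of the 3 comparisons under any of the 23 alternatives. The Pre-miR-223 against Scramble median of -0.18 stayed below 0 in all of them; it was -0.075 with arrays centred on protein-coding genes above log2 5 (added after seeing the data) and -0.079 with cyclic loess, and ran from -0.25 to -0.14 over the fits that left out 1 array. The Anti-miR-223 against Scramble median ran from -0.17 (without Anti-miR-223 replicate 4) to 0.069, and the Pre-miR-223 against Anti-miR-223 median from -0.28 to -0.023 (without the same array). With the replicate number as a block 0 genes were called and the medians were -0.18, -0.018 and -0.18. Only 4 of 12 same-numbered pairs of arrays had residuals correlated above 0.1 (-0.50 to 0.39). Of the 12 arrays, 2 correlated best with their own number. These residuals are deviations from means of 4 arrays, with Anti-miR-223 replicate 4 among them, so they cannot exclude a pairing by number. Array weights gave a weight of 0.172 to Anti-miR-223 replicate 4, against 0.724 to 2.44 for the others.

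Some differences that were close to 0 in the main fit changed sign, and the cause was not tested. Between Pre-miR-223 and Scramble, Lbr became 0.012 with repeated quantile normalisation, 0.069 with cyclic loess and 0.058 with protein-coding centring. Stard4 became 0.018 with cyclic loess and 0.030 with that centring, and Insig1 became -0.022 with array weights. Between Anti-miR-223 and Scramble, repeated quantile normalisation gave 0.018 for Hmgcs1, 0.012 for Fdft1, 0.0089 for Cyp51 and 0.030 for Msmo1. Cyclic loess gave 0.020 for Hmgcs1, 0.0062 for Cyp51, 0.024 for Msmo1 and 0.0016 for Insig1. Protein-coding centring gave 0.0088 for Hmgcs1, 0.00053 for Cyp51, 0.0073 for Tm7sf2 and 0.019 for Msmo1. Array weights gave -0.074 for Mvd, -0.015 for Lss, -0.27 for Nsdhl, -0.11 for Hsd17b7 and -0.20 for Npc1. Without Anti-miR-223 replicate 4, which had a weight of 0.172, these genes were at -0.16, -0.16, -0.42, -0.20 and -0.26. Centring on array medians gave -0.010 for Ebp, and the mean of all clusters gave 0.043 for Scap.

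Over the fits that left out 1 array, the Anti-miR-223 against Scramble difference changed sign, with ranges of -0.18 to 0.10 for Cyp51, -0.097 to 0.090 for Ebp, -0.29 to 0.11 for Fdft1, -0.10 to 0.071 for Hmgcs1, -0.20 to 0.24 for Hsd17b7, -0.23 to 0.062 for Insig1, -0.036 to 0.13 for Lbr, -0.16 to 0.22 for Lss and -0.29 to 0.18 for Msmo1. The other ranges were -0.16 to 0.14 for Mvd, -0.26 to 0.23 for Npc1, -0.42 to 0.36 for Nsdhl, -0.098 to 0.028 for Pmvk, -0.24 to 0.058 for Sc5d, -0.19 to 0.13 for Scap, -0.15 to 0.031 for Stard4 and -0.071 to 0.034 for Tm7sf2. Between Pre-miR-223 and Scramble the ranges that crossed 0 were -0.0094 to 0.12 for Hmgcs1, -0.010 to 0.069 for Insig1 and -0.19 to 0.015 for Stard4. Other differences moved by over 1.5 times without changing sign. Between Pre-miR-223 and Scramble, without Pre-miR-223 replicate 2, Ebp was -0.54, Lss -0.37, Nsdhl -0.26, Pmvk -0.22 and Lbr -0.092; without replicate 3, Lss was -0.081 and Cyp51 -0.11; without replicate 1, Npc1 was -0.11 and Lbr -0.028; without replicate 4, Ebp was -0.17. Without Scramble replicate 2, Nsdhl was -0.0047, Dhcr7 -0.12 and Mvk -0.065, and without Scramble replicate 1 Pmvk was -0.074. Between Anti-miR-223 and Scramble, without Anti-miR-223 replicate 2, Dhcr7 was -0.0037, Fdps -0.041, Sqle -0.0036 and Mvk 0.36; without replicate 3, Mvk was 0.12 and Sqle -0.15; without replicate 4, Dhcr7 was -0.43, Fdps -0.19 and Insig2 0.10. Srebf2 was -0.18 without Scramble replicate 3 and -0.051 without Scramble replicate 1. Between Pre-miR-223 and Anti-miR-223, Scap was -0.50 without Anti-miR-223 replicate 2, and without replicate 4 Scap was -0.17 and Sc5d -0.16. Dim genes, such as Tm7sf2, are limited by signal over background.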
